A study of Homo sapiens with 9 samples.

Results

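The luminal identity genes described here are *FOXA1*, *GATA3*, *SPDEF*, *TFAP2A*, *TFAP2B*, *ESR1*, *TFF1*, *TFF3* and *AGR2*, taken by their symbols from the gene count table. They are 9 of its 59452 gene symbols. They were followed in bulk RNA sequencing of MDA-MB-453, a human breast cancer cell line that the labels call triple-negative and wild type. Cells were kept for 48 hours either attached with vehicle (DMSO), in forced suspension on poly-HEMA with vehicle, or in forced suspension with 10 µM AT-0174, an inhibitor of the tryptophan-degrading enzymes TDO2 and IDO1. Each condition had 3 libraries, described as biological triplicates, and attached cells with AT-0174 were not analysed here. All libraries came from 1 cell line, so their spread does not cover differences between tumors or donors.

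Luminal breast epithelial cells keep their identity through a small set of transcription factors. FOXA1 is a pioneer factor that opens chromatin for steroid receptors, GATA3 drives luminal differentiation of the mammary gland, SPDEF is an ETS-family factor of secretory epithelia, and the AP-2 proteins TFAP2A and TFAP2B are expressed in luminal cells. ESR1, the estrogen receptor, uses these factors in hormone-dependent tumors. The trefoil peptides TFF1 and TFF3 are small secreted proteins and classical estrogen-induced genes, and AGR2 is a protein disulfide isomerase of the endoplasmic reticulum that helps to fold secreted proteins.

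The 2 transcription factors that rose in suspension, *FOXA1* and *SPDEF*, are shown first by the sequence before their main start site, next to *GATA3* and *AGR2*, which did not pass the test. Each stretch comes from the 250 bases before a RefSeq start site (GRCh38.p14) that is also the start of the member's most abundant transcript, read on the strand of the gene. Bases covered by an annotated exon of the gene or of its antisense partner were left out, so *FOXA1* has 151 bases, *SPDEF* 246, and *GATA3* and *AGR2* 250 each. For *FOXA1* and *SPDEF* the bases left out are those nearest the start, so their stretches end before it. Distances are counted from the start site, not from the end of the stretch. Capitals mark matches to letters known for the binding of the members' own protein families. Letters searched on both strands were TGTTTNC for forkhead proteins, AGATAA for GATA proteins, GCCNNNGGC for AP-2 proteins, CCGGAAG for ETS proteins and GGTCA for the estrogen receptor.
*FOXA1*, chr14:37595349-37595499, minus strand: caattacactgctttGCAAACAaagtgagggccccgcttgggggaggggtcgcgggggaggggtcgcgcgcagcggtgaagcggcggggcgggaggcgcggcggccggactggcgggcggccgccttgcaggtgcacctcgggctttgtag
*SPDEF*, chr6:34556334-34556579, minus strand: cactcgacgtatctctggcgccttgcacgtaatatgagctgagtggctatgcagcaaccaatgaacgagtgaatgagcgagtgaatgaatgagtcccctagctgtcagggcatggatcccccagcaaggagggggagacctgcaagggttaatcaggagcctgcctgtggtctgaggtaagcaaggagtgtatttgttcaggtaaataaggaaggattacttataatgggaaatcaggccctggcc
*GATA3*, chr10:8054438-8054687, plus strand: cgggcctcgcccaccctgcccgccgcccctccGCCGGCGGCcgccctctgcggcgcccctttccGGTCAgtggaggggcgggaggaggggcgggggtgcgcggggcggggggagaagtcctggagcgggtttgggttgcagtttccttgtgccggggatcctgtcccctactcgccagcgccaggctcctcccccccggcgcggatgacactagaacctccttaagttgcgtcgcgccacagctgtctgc
*AGR2*, chr7:16805000-16805249, minus strand: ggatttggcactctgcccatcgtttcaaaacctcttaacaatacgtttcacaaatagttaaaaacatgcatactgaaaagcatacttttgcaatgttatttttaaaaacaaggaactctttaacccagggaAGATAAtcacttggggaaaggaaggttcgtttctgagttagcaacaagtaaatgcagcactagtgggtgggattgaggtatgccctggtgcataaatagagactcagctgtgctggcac

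The *FOXA1* stretch held a forkhead match beginning 235 bases before the start, and the *SPDEF* stretch held none of the letters searched. The *GATA3* stretch held an AP-2 match 218 bases and an estrogen receptor match 186 bases before the start, and the *AGR2* stretch held a GATA match 119 bases before it. No 2 of these matches overlapped. Among 35116 promoter windows of 250 bases, 15.457% held the forkhead letters, 9.167% the GATA letters, 19.786% the AP-2 letters, 8.517% the ETS letters and 32.649% the estrogen receptor letters. The 4 stretches also differed in base composition over their full 250-base windows, with 67.2% G and C for *FOXA1*, 73.6% for *GATA3*, 50.8% for *SPDEF* and 40.4% for *AGR2*. The matches are descriptions of the letters, and binding was not measured.

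The libraries held 36649997 to 48019126 estimated counts. The share from the mitochondrial genome was 7.56% to 9.32% in attached cells, 4.05% to 4.34% in suspended vehicle cells and 3.73% to 5.51% with AT-0174. The highest share, 9.32%, and the highest share from transcripts with a retained intron, 5.50%, were both in attached replicate 3. The line carried luminal keratins, with *KRT8* at 889, *KRT18* at 650.0 and *KRT19* at 794 CPM (counts scaled to a common library size) in attached cells, whereas the basal keratins *KRT5*, *KRT14* and *KRT17* and the mesenchymal *VIM* had at most 4 counts in any library. Other genes of the basal and mesenchymal list were present, in attached cells *CDH2* at 22.2, *CDH3* at 8.52, *TP63* at 5.68, *LAMB3* at 4.61 and the basal keratin *KRT15* at 2.25 CPM. The summed level of the 25 basal and mesenchymal markers was 54.0 to 56.5 CPM in attached, 44.7 to 45.7 in suspended vehicle and 38.6 to 40.0 in suspended AT-0174 cells.

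Levels of different genes were compared per transcript length, in TPM (transcripts of each gene scaled to a fixed library total). In attached cells *GATA3* was the most abundant member at 949 ± 42.0 TPM (mean ± SD, n = 3), and 0.779% of the 15528 tested genes stood above it. *AGR2* followed at 820 ± 48.4 TPM, *FOXA1* at 328 ± 6.62 and *SPDEF* at 310 ± 1.13. The AP-2 genes were close to each other, *TFAP2B* at 210 ± 4.98 and *TFAP2A* at 208 ± 7.07 TPM, and their libraries overlapped. *TFF1* was lower at 36.5 ± 4.44 TPM, *TFF3* was near the bottom at 1.14 ± 0.183 TPM, and *ESR1* stood at 0.0309 ± 0.0430 TPM. Mean levels had this order in all 3 conditions, and no neighbours other than the AP-2 pair overlapped in attached cells. In both suspended groups the libraries of *GATA3* and *AGR2* overlapped as well.

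The levels of several members depended on which transcripts were counted. So did the place of *FOXA1* in this order and, in attached cells, those of the AP-2 genes. About 48.0% of *AGR2* TPM was assigned to ENST00000489523, a 572-base transcript of the retained intron type, and 28.6% of *FOXA1* TPM to ENST00000545425, which has no defined coding sequence. With coding transcripts alone, *AGR2* stood at 422 ± 31.6 and *FOXA1* at 190 ± 8.16 TPM in attached cells, so *FOXA1* stood below *SPDEF* (310 TPM), while *AGR2* stayed second to *GATA3* with its 949 TPM. The AP-2 pair changed places there, *TFAP2A* at 162 ± 3.98 and *TFAP2B* at 160 ± 2.24 TPM, and *TFF3* stood at 0.324 TPM. In suspension the coding level of *TFAP2B* stayed above that of *TFAP2A*, at 175 against 162 TPM with vehicle and 166 against 161 TPM with AT-0174.

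*ESR1*, at chr6:151656691-152129619 on the plus strand, was close to undetected. It had 2, 1 and 0 counts in attached cells, 0, 0 and 4 in suspended vehicle cells and 3, 1 and 2 with AT-0174. The 3 libraries at 0 counts allow up to 3 counts, or 0.0692 to 0.0781 CPM before scaling, for counting error only. No library held more than 4 counts, no condition stood apart, and *ESR1* was the one member that did not pass the filter on low counts. The progesterone receptor gene *PGR*, a target of the estrogen receptor, had 5 to 18 counts a library. Relatives of the members ranged from undetected to abundant. *FOXA2* was at 0 counts in every library, and *FOXA3* and *TFF2* had 0 to 4. In attached cells the AP-2 relative *TFAP2C* was at 55.5 CPM, *GATA2* at 128 CPM, and *EHF* and *ELF3*, ETS factors like SPDEF, at 276 and 46.3 CPM.

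**Figure D1:**
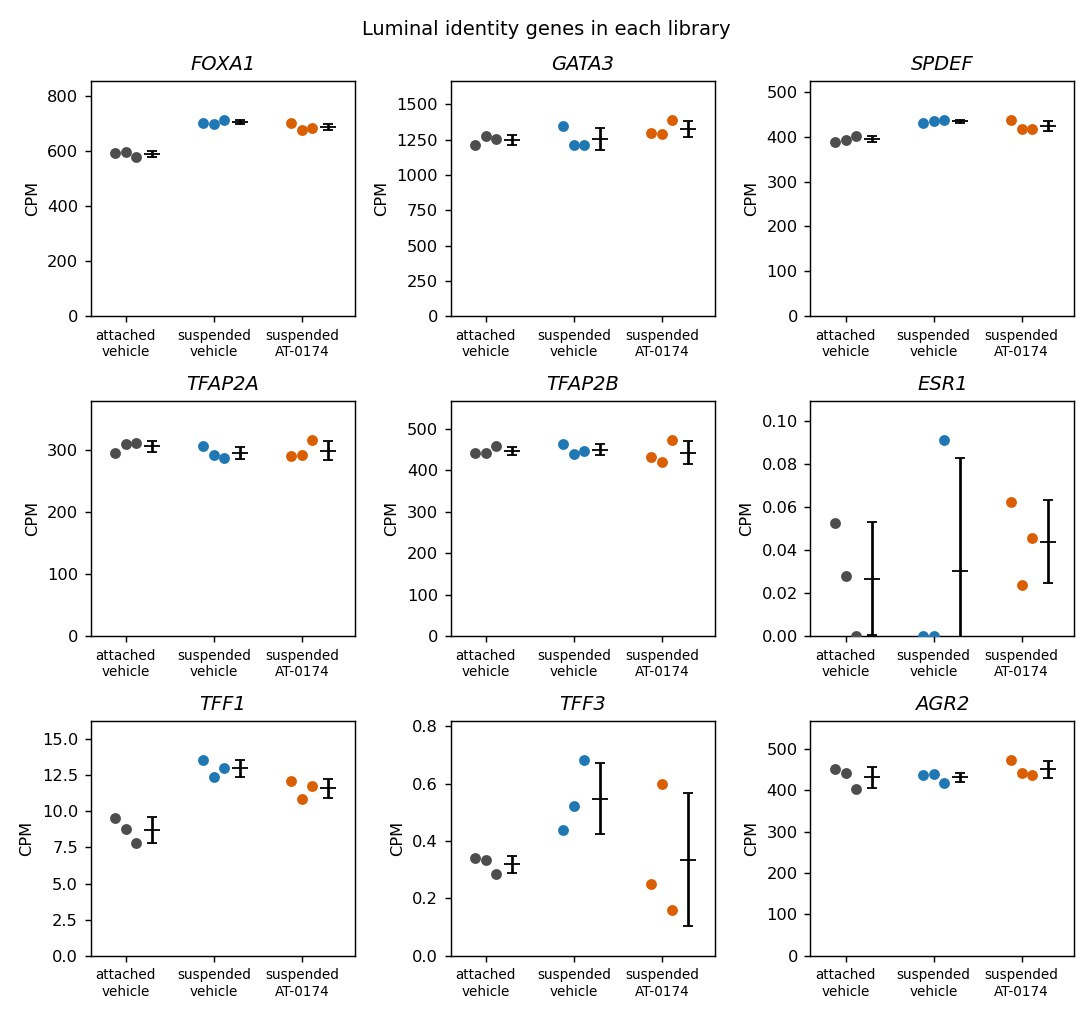
CPM of the 9 luminal identity genes (vertical axes, each from 0) in the 3 libraries of each condition (points), with the mean and SD beside them (bars; lower arms of ESR1 are not drawn below 0). FOXA1, SPDEF and TFF1 are higher in all 6 suspended libraries than in the 3 attached ones; ESR1 stays below 0.1 CPM.

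The comparison of suspended with attached vehicle cells asks what loss of attachment does. Of the 8 members tested with edgeR's quasi-likelihood test, *FOXA1*, *SPDEF* and *TFF1* rose, none fell, and 5 did not pass. Over all 15528 tested genes 21.2% passed the threshold, 10.4% higher and 10.8% lower, and the median log2 fold change of all genes was -0.00025. In bulk RNA, a change in the number of cells that express a gene and a change in RNA per cell cannot be told apart.

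*FOXA1* (chr14:37589552-37596059, minus strand), the pioneer factor, rose by 19.7%. Its level was 594, 596 and 577 CPM in attached cells and 703, 699 and 713 CPM in suspended vehicle cells. Every suspended library lay above every attached one, and the replicates within a condition were within a narrow range. The log2 fold change was 0.26 (SE 0.0281, edgeR adjusted p = 0.000114).

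*SPDEF* (chr6:34537802-34556333, minus strand) rose less, by 10.2%. It stood at 389, 393 and 401 CPM attached and at 431, 435 and 437 CPM suspended. The groups did not overlap, although the gap between the highest attached and the lowest suspended library was small beside the level itself. The log2 fold change was 0.14 (SE 0.0291, edgeR adjusted p = 0.00594).

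*TFF1* (chr21:42362282-42366535, minus strand), the secreted trefoil peptide, rose by 48.8%, from a much lower level. It stood at 9.57, 8.80 and 7.78 CPM attached and at 13.6, 12.4 and 13.0 CPM suspended, from 302 to 571 counts. The log2 fold change was 0.57 (SE 0.0809, edgeR adjusted p = 0.000733). This increase was measured with *ESR1* at 0 to 4 counts in the same libraries.

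*GATA3* (chr10:8045378-8075198, plus strand) did not pass the test. Its level was 1212, 1277 and 1254 CPM attached and 1346, 1209 and 1212 CPM suspended. Suspended replicate 1 was the highest of these 6 libraries, the other two stood level with the lowest attached library, and the groups overlapped. The log2 fold change was 0.01 with a 95% interval from -0.09 to 0.11 (edgeR adjusted p = 0.908). That interval lies below the fitted 0.14 of *SPDEF* and 0.26 of *FOXA1*. It overlaps the 95% interval of *SPDEF*, from 0.08 to 0.20, but not that of *FOXA1*, from 0.20 to 0.32.

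The AP-2 genes and *AGR2* likewise did not pass. *TFAP2A* (chr6:10393186-10419659, minus strand) was at 306 ± 8.82 CPM attached and 295 ± 9.77 suspended, with a 95% interval of the log2 fold change from -0.14 to 0.03. *TFAP2B* (chr6:50818723-50847619, plus strand) was at 447 ± 9.77 and 450.2 ± 12.8 CPM, with an interval from -0.08 to 0.10. *AGR2* (chr7:16791811-16833433, minus strand) was at 432 ± 25.1 and 431 ± 11.1 CPM, with an interval from -0.10 to 0.09. The attached and suspended libraries of all 3 genes overlapped, and the intervals leave room for changes of about the size seen for *SPDEF* in *TFAP2A*, where the lower bound reached -0.14.

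*TFF3* (chr21:42311667-42315409, minus strand), the other trefoil gene, was too sparse for a firm statement. It had 13, 12 and 11 counts attached and 17, 23 and 30 suspended, which is 0.340, 0.332 and 0.283 CPM against 0.439, 0.521 and 0.683 CPM. The suspended libraries were all higher, yet the log2 fold change of 0.78 had a 95% interval from -0.15 to 1.71 and did not pass (edgeR adjusted p = 0.22). Counting *TFF3*, the libraries of 4 tested members did not overlap between attached and suspended vehicle cells, and 38.1% of all tested genes did not overlap either.

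**Figure D2:**
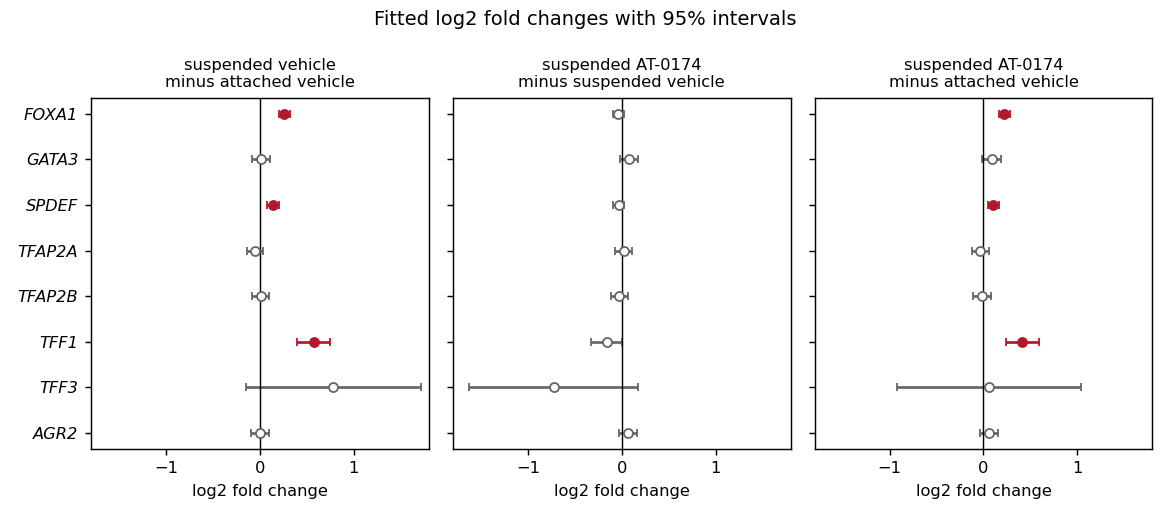
Fitted log2 fold change (horizontal axis) with its 95% interval for the 8 tested members (rows) in the 3 comparisons (panels); filled red points passed the edgeR threshold of 0.05. FOXA1, SPDEF and TFF1 pass in both comparisons with attached cells, and no member passes between AT-0174 and vehicle in suspension.

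The comparison of AT-0174 with vehicle, both in suspension, asks what the inhibitor adds. None of the 8 tested members passed edgeR's test, none had an unadjusted p under 0.05, and DESeq2 and limma-voom called none either. Over all tested genes 0.779% passed, 0.522% higher and 0.258% lower, and 1401 had an unadjusted p under 0.05.

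With AT-0174, *FOXA1* was at 702, 678 and 684 CPM, against 699 to 713 CPM with vehicle. The log2 fold change was -0.04 with a 95% interval from -0.10 to 0.03. *SPDEF* was at 437, 418 and 419 CPM, against 431 to 437, with an interval from -0.10 to 0.03. For both genes the library of replicate 1 was among the vehicle values and the others were lower.

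*GATA3* was at 1298, 1288 and 1388 CPM with AT-0174, overlapping the 1209 to 1346 CPM of vehicle (interval -0.02 to 0.17). *TFAP2A* was at 289 to 316 CPM (interval -0.07 to 0.11), *TFAP2B* at 420.4 to 473 CPM (interval -0.12 to 0.07) and *AGR2* at 437 to 474 CPM (interval -0.03 to 0.16). All of these overlapped the vehicle libraries.

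*TFF1* gave the one set of libraries that did not overlap. It was at 12.1, 10.9 and 11.8 CPM with AT-0174, below the 12.4 to 13.6 CPM of suspended vehicle cells and above the 7.78 to 9.57 CPM of attached cells. The log2 fold change between the suspended groups was -0.16 with a 95% interval from -0.33 to 0.01 (edgeR adjusted p = 0.581, unadjusted 0.0591). Over all tested genes 15.4% did not overlap in this comparison. *TFF3* had 12, 25 and 7 counts with AT-0174, which spread from below the attached to within the suspended vehicle range.

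Suspended AT-0174 cells were also compared with attached vehicle cells, where culture and inhibitor both differ and the attached libraries are shared with the first comparison. Again *FOXA1*, *SPDEF* and *TFF1* were higher, and 24% of all tested genes passed, 12.2% higher and 11.8% lower. The fitted log2 fold changes were 0.22 for *FOXA1* (edgeR adjusted p = 0.000236), 0.11 for *SPDEF* (adjusted p = 0.0195) and 0.41 for *TFF1* (adjusted p = 0.0035). The call for *SPDEF* rested on single libraries, since its adjusted p was 0.0702 without attached replicate 1, 0.0521 without attached replicate 2 and 0.0892 without AT-0174 replicate 1.

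*GATA3* lay above every attached library in this comparison, at 1288 to 1388 against 1212 to 1277 CPM, but the log2 fold change of 0.09 did not pass (95% interval -0.01 to 0.18, edgeR adjusted p = 0.184). With *GATA3*, 4 tested members did not overlap here, beside 39.5% of all tested genes. The 95% intervals of the other members were -0.12 to 0.05 for *TFAP2A*, -0.11 to 0.07 for *TFAP2B*, -0.03 to 0.16 for *AGR2* and -0.92 to 1.03 for *TFF3*.

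Ratios of 2 members within the same library do not depend on the scaling between libraries. Each ratio set a member called higher in suspension over 1 that did not pass. The choice of pairs thus favoured a separation of attached from suspended cells. The count ratio of *FOXA1* to *GATA3* was 0.490, 0.467 and 0.460 attached and 0.523, 0.578 and 0.588 suspended with vehicle. The groups did not overlap, which gave an exact two-sided permutation p = 0.1, the smallest that 3 against 3 libraries allow. With AT-0174 the ratio was 0.540, 0.527 and 0.493, above the attached values and overlapping those of suspended vehicle.

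The ratio of *SPDEF* to *GATA3* was 0.308 to 0.3205 attached and 0.3206 to 0.361 suspended with vehicle, so the groups touched without overlap. With AT-0174, at 0.302 to 0.337, it overlapped both other conditions. The ratio of *TFF1* to *AGR2*, a trefoil peptide against a folding factor of the secretory pathway, was 0.0193 to 0.0212 attached, 0.0281 to 0.0311 suspended with vehicle and 0.0246 to 0.0269 with AT-0174. The 3 conditions were separate from each other in this ratio, with an exact permutation p = 0.1 in each of the 3 comparisons. In all, 9 such comparisons of 3 ratios were made, and in this design none could reach 0.05.

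**Figure D3:**
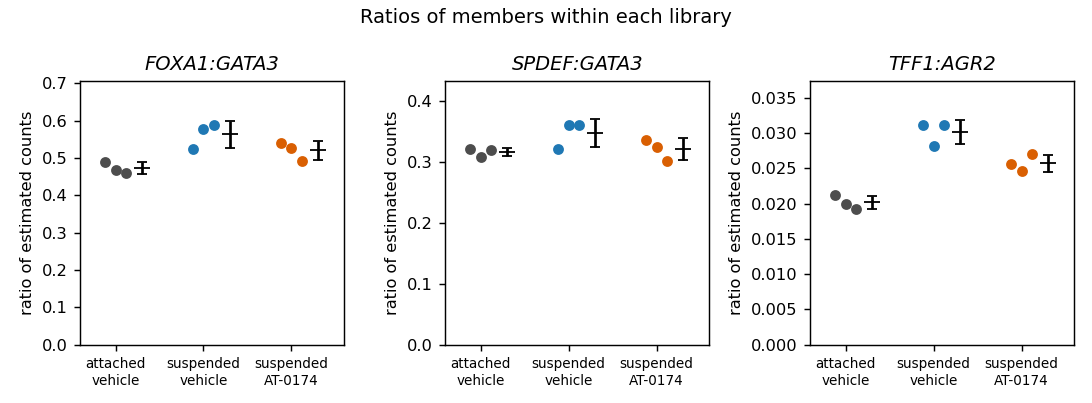
Ratio of estimated counts of 2 members within each library (vertical axes, from 0), with points for the 3 libraries of each condition and bars for mean and SD. The FOXA1 to GATA3 and TFF1 to AGR2 ratios are higher in every suspended library than in every attached one, and the TFF1 to AGR2 ratio with AT-0174 (0.0246 to 0.0269) lies between those of the vehicle groups.

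The members differed in how many transcripts carried their signal. *TFF1* had 1 transcript in the annotation and *SPDEF* gave 95.5% of its TPM to ENST00000374037. *FOXA1* was split between ENST00000250448 at 59.0% and ENST00000545425 at 28.6%, and *GATA3* between ENST00000379328 at 37.5%, ENST00000461472 at 29.4% and ENST00000346208 at 19.7%. These shares are estimates of how reads that fit several transcripts were divided, and transcript ends were not read directly.

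The rise of *FOXA1* in suspension involved both of its main transcripts. ENST00000250448 went from 190 ± 8.16 to 249 ± 8.24 TPM and ENST00000545425 from 97.2 ± 0.415 to 119 ± 2.84 TPM. TPM is scaled otherwise than CPM, so these rises are not to be set against the 19.7% of the gene. *AGR2*, for one, went from 820 to 885 TPM while its CPM was 432 and 431. The shares of the *FOXA1* transcripts overlapped between attached and suspended vehicle cells, at 57.7% against 59.5% for the first and 29.6% against 28.5% for the second. With AT-0174 they were 59.6% and 27.7%, without overlap with the attached libraries (exact permutation p = 0.1 each).

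The gene total of *TFAP2A* did not pass in any comparison, but shares of some of its transcripts did not overlap between attached and suspended vehicle cells. All transcripts of the 8 tested members with at least 10% of the gene TPM were compared in this way. Such separation can arise by chance, and no share comparison could reach 0.05 in this design. ENST00000482890, a coding transcript of 2071 bases, held 25.0%, 24.2% and 24.8% of *TFAP2A* TPM in attached cells. In suspended vehicle cells it held 21.7%, 16.0% and 17.3%, and with AT-0174 16.9%, 17.6% and 21.5%. Every suspended library lay below every attached one (exact permutation p = 0.1, the smallest possible), and the suspended groups overlapped. The share of the most abundant transcript, ENST00000319516, was 35.0% ± 0.960 attached and 36.0% ± 1.46 suspended with vehicle, with overlap. With AT-0174 it was 36.2%, without overlap with the attached libraries.

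Other shares moved less. ENST00000489228 of *TFAP2B*, which has no defined coding sequence, held 24.1% ± 0.948 attached and 21.5% ± 1.61 suspended with vehicle, without overlap. ENST00000379328 of *GATA3* held 33.9% ± 2.16 attached and 39.5% ± 3.76 suspended, with overlap. The retained intron transcript of *AGR2* held 48.4% in both vehicle conditions and 47.2% with AT-0174. The AT-0174 libraries did not overlap those of suspended vehicle (exact permutation p = 0.1) but overlapped the attached ones. *TFF3* shares rested on 7 to 30 counts and are not compared.

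**Figure D4:**
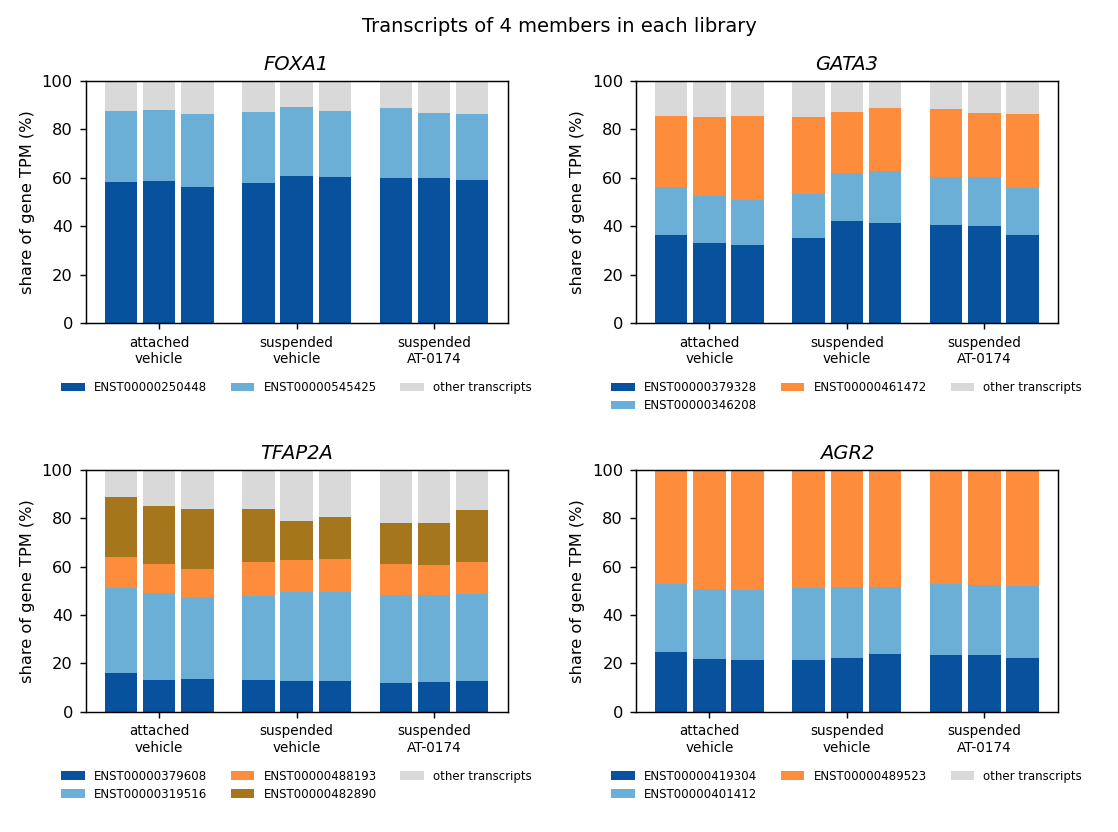
Share of gene TPM (vertical axes, percent) assigned to the main transcripts of FOXA1, GATA3, TFAP2A and AGR2 in each of the 9 libraries (bars, replicates 1 to 3 from left to right within a condition). The TFAP2A transcript ENST00000482890 holds 24.2% to 25.0% in attached cells and 16.0% to 21.7% in suspended ones. The AGR2 transcript ENST00000489523 holds 46.9% to 49.2% over all libraries.

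Related genes were described by lists, to be read beside the 10.4% of all tested genes called higher and the 10.8% called lower from attached to suspended vehicle cells. Of 31 other luminal transcription factors and cofactors, 24 were tested. From attached to suspended vehicle cells, 6 of them rose, 2 fell and 16 did not pass, with a median log2 fold change of 0.09. *XBP1*, a factor of the secretory and unfolded protein response, rose by 0.37, and *NRIP1*, a nuclear receptor corepressor, by 0.35. *LDB1* and *LMO4*, which bind each other in transcription factor complexes, fell by 0.22 and 0.21. *TFAP2C* did not pass (0.14, edgeR adjusted p = 0.051).

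Of 28 luminal epithelial markers 26 were tested, of which 9 rose and none fell in suspension by edgeR, with a median of 0.09. The tight junction genes *CLDN7* and *CLDN3* rose by 0.27 and 0.23, and *ELAPOR1* by 0.22. *KRT8* did not pass, at 889 against 884 CPM. Of 14 apocrine and secretory markers 7 were tested, of which 4 rose and none fell (median 0.16), with *PIP* at 0.71, *MUCL1* at 0.32 and *CLCA2* at 0.15.

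Of 17 partners of the trefoil peptides and AGR2 and mucins 7 were tested, of which 1 rose, 2 fell and 4 did not pass, with a median of -0.07. Of these, *LYPD3*, a surface protein reported to bind AGR2, rose by 0.27, and the mucins *MUC2* and *MUC1* fell by 0.88 and 0.76. The mucin calls depended on single libraries, with no lower call left in this list without suspended vehicle replicate 3. Of 25 basal and mesenchymal markers 11 were tested, of which none rose and 4 fell by edgeR (median -0.20), namely *MYLK* (-1.12), *CDH3* (-0.68), *LAMB3* (-0.53) and *CDH2* (-0.34). The other 7 did not pass, among them *FN1* at 0.39 (edgeR adjusted p = 0.0573), whose groups did not overlap. Of the 11, 4 had a positive log2 fold change.

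The genes next to the members and their antisense partners did not pass in any comparison, 9 of 13 being tested. *GATA3-AS1*, antisense to *GATA3*, was at 35.3 ± 2.58 CPM attached and 34.4 ± 1.71 suspended, and *TFAP2A-AS1* and *TFAP2A-AS2* were near 1 CPM or below. Whether reads were assigned by strand is not given in the sources used here. Reads from stretches that a partner shares with *GATA3* or *TFAP2A* therefore cannot be told apart. *GATA3-AS1* (chr10:8050450-8053484) ends before the start of ENST00000379328, the most abundant *GATA3* transcript, and shares no bases with that transcript. Of 8 markers of other cell types 2 were tested, and *COL1A1* fell by 0.28, from 137 to 113 CPM, while *COL1A2* had at most 4 counts.

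Between AT-0174 and vehicle in suspension, 0.779% of all tested genes passed. Of the 26 tested epithelial markers 1 rose and 1 fell (7.69%). Of the 7 tested apocrine and secretory markers 1 fell (14.3%), and of the 11 tested basal and mesenchymal markers 1 fell (9.09%). No gene of the other lists passed. *CLDN4* rose by 0.22, and *ELAPOR1* (-0.19), *AZGP1* (-0.27) and *CDH2* (-0.28) fell. No luminal transcription factor or cofactor among the 24 tested passed. Against attached cells, suspended AT-0174 cells had 8 of the 24 factors higher and 2 lower, and 11 of the 26 epithelial markers higher and 1 lower, beside 12.2% higher and 11.8% lower of all tested genes.

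**Figure D5:**
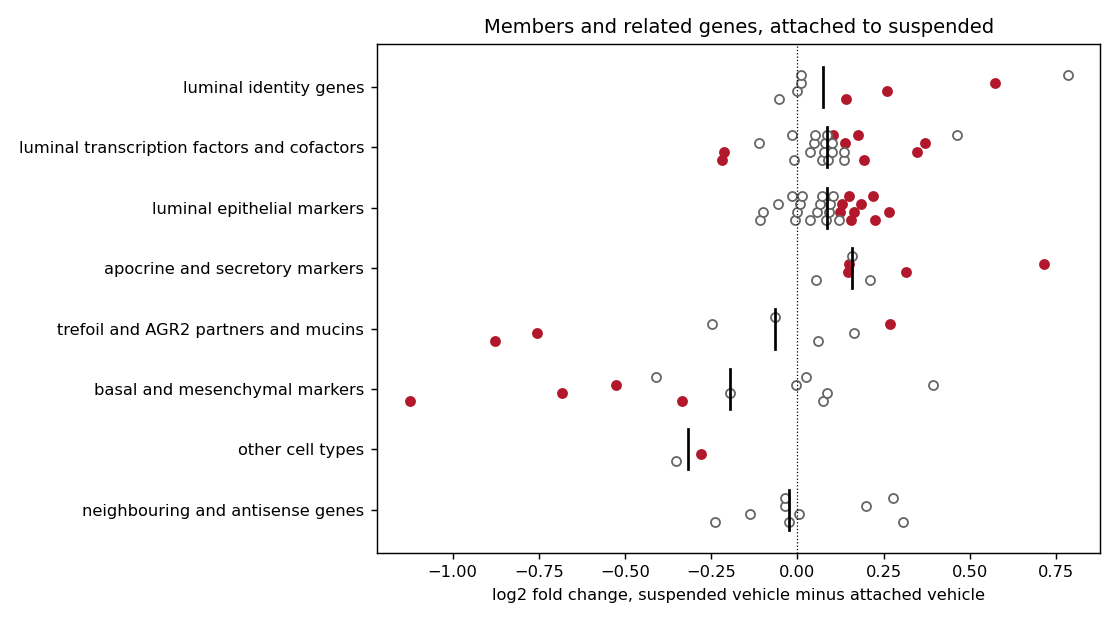
Log2 fold change from attached to suspended vehicle cells (horizontal axis) of the tested members and of the tested genes of 7 related lists (rows); filled red points passed the edgeR threshold and black bars are medians. The called epithelial and apocrine markers lie to the right of 0 and the called basal and mesenchymal markers to the left.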

How the data were processed

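Bulk RNA of 9 libraries was analysed. The authors trimmed reads (Trim Galore 0.6.7, Cutadapt 3.4), aligned them with STAR 2.7.9a to GRCh38 and quantified transcripts with Salmon 1.10.1. They deposited estimated counts per gene symbol and, per library and transcript, Salmon's estimated counts, TPM and effective lengths, of which 236920 transcripts a library were used. The gene table equalled the summed transcripts within 5.82e-11 counts. The labels and the study's methods name different library kits.

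Counts were rounded, filtered by filterByExpr (15528 genes), scaled by TMM and fitted in edgeR 4.0.16 (R 4.3.3) with 1 quasi-likelihood model over the 3 conditions. P-values were adjusted by Benjamini-Hochberg over all tested genes, with a threshold of 0.05. The study itself used limma, which was an alternative here (limma-voom 3.58.1), as was DESeq2 1.42.0. Fold changes of called genes are read off this fit. Gene positions and transcript types are from GENCODE 44. Promoter sequence is from a set of windows at RefSeq start sites, and the set used here held 7 of the 9 members. P-values measure the spread between these 3 cultures a condition. Ratios and transcript shares were compared by exact permutation over libraries. No 2 libraries of a condition agreed within counting noise. The test was tried on simulated counts first.

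Members, lists, tests and motif letters were chosen with earlier results of these data, or the sequences, known. All members are named. Of each list, the called genes with the largest changes (up to 3) and cell type markers are named. The others that are named were chosen after their values were seen.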

Additional observations from a re-analysis of the deposited data

How the results depend on the processing

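*FOXA1*, *SPDEF* and *TFF1* passed from attached to suspended vehicle cells in all 17 alternatives, with log2 fold changes of 0.25 to 0.27, 0.13 to 0.16 and 0.50 to 0.65. No member passed between AT-0174 and vehicle in any of them. From attached to suspended AT-0174 cells 3 members passed in 14 alternatives and 2 in the 3 that lost *SPDEF*, where the log2 fold change was 0.096, 0.105 and 0.085. *TFF3* could not be tested with at least 10 counts in every library. Counts over all genes moved more. Counts rebuilt from TPM gave 1726, 35 and 2076 genes in the 3 comparisons in the order of the text, against 3297, 121 and 3724. Leaving out 1 library gave 1935 to 3260, 63 to 128 and 2239 to 3680 genes. Between AT-0174 and vehicle, DESeq2 gave 214 genes and no filter on low counts 499. The share of higher calls there was 66.9%, against 57.9% with DESeq2 and 54.7% without a filter. The causes were not tested. Replicate numbers shared between conditions did not pair the libraries, since 2 of 9 same-number pairs correlated above 0.1 (r from -0.155 to 0.23) and 3 of 9 libraries correlated best with their own number. With the replicate block 3, 0 and 3 members and 3250, 146 and 3677 genes passed. Levels from coding transcripts alone were computed after the data had been seen. Depth limits *ESR1* and *TFF3*, at 0 to 30 counts a library.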

Other observations

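The genes whose CPM over the 9 libraries (log2 scale, 10528 genes with a mean of at least 5 CPM) was most like that of a called member are given as a description, since the libraries share 3 conditions. For *FOXA1* they were *FH*, a citric acid cycle enzyme (Pearson r 0.993), *SNPH* (0.992) and *CDKN1A*, a cell cycle inhibitor (0.991). For *SPDEF* they were *UBE4A* (0.981), *PWP2* (0.975) and *CKB* (0.975), and for *TFF1* they were *ID2* (0.989), *ATP6V0D1* (0.985) and *MICU2* (0.984).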
